A study of Mus musculus with 30 samples.

Results

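Histone- and DNA-modifying enzyme genes were taken as the protein-coding genes whose symbol begins with Hdac, Sirt, Kdm, Kmt, Setd, Dnmt, Ezh, Kat or Brd followed by a digit, together with Tet1, Tet2 and Tet3. The rule leaves out Kdm5c, Kdm5d and Kdm6a by name. Of 87 matching symbols, 3 were left out by name and 9 were not protein-coding, so 75 of the 55414 genes in the count tables were members. The filter on low counts passed 74 of the 75, and these were among the 15686 genes tested. Kdm4d, a histone H3 demethylase gene, did not pass, with 62 reads over all libraries.

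PolyA-selected RNA was sequenced from macrophages that had been grown in culture from mouse bone marrow. The marrow came from wild-type (WT) mice or from transgenic mice with TRα1PV, a mutant thyroid hormone receptor α1 that is known not to bind thyroid hormone and to act in a dominant-negative manner. All cells were cultured for 7 days with fetal bovine serum and medium conditioned by L929 fibroblasts at 15 or 20%, and the labels do not say which of these a library had. They were then left unstimulated (M0), given lipopolysaccharide (LPS) and interferon-γ at 20 ng/mL each (M1, a pro-inflammatory state), or stimulated with 20 ng/mL of interleukin-4 (M2, an immunomodulatory state). The 6 groups were WT M0, WT M1, WT M2, TRα1PV M0, TRα1PV M1 and TRα1PV M2, each with 5 biological replicates, which makes 30 libraries. The sources used here do not give the age and sex of the mice, the zygosity, the time of stimulation or the thyroid hormone in the medium.

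The members write, remove or read chemical marks on chromatin. Acetyl groups on histone lysines are added by lysine acetyltransferases (KAT), removed by histone deacetylases (HDAC) and sirtuins (SIRT), and bound by bromodomain proteins (BRD), and they are found at active genes. Methyl groups on histone lysines are added by the KMT, SETD and EZH enzymes and removed by the demethylases (KDM), while DNA is methylated by the DNMT enzymes and oxidised by the TET enzymes towards demethylation. In the absence of thyroid hormone, thyroid hormone receptors are known to bind the NCoR and SMRT corepressors, which carry HDAC3. In macrophages, Kdm6b is known as a gene that LPS induces.

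Libraries held 23015952 to 59086252 reads in genes, of which 0.477 to 0.592% fell in the members. Thra, which encodes the receptor, stood between 41.7 and 61.1 CPM (a gene's read count scaled to the size of its library) in the TRα1PV libraries and between 15.6 and 35.0 CPM in the WT libraries, but read counts per gene do not show the mutation itself. Of 10 macrophage markers, all reached 1 CPM in every group, with Csf1r at 440.8 CPM or more in each library. Markers of other cells moved with genotype: the summed level of 12 granulocyte-precursor markers ranged from 180.4 to 371.7 CPM in TRα1PV M0 and from 49.27 to 211.5 CPM in WT M0, and that of 10 fibroblast markers from 1.284 to 2.804 CPM and from 7.046 to 24.17 CPM. In M1 the granulocyte-precursor sums were at most 11.87 CPM, with Elane at 0 in both genotypes, and in M2 they were 99.36 to 229.9 CPM in TRα1PV and 29.09 to 93.83 CPM in WT. Of 12 B, T and NK cell markers, at most 1 reached 1 CPM in any group. Replicate 2 of WT M0 stood apart with 4.56% mitochondrial reads, and the share of reads outside genes was 12.0 to 14.7% in TRα1PV M0 and 9.68 to 14.2% in WT M0. The part of these cells and libraries in the results below was not tested, except where a value without them is given. In bulk RNA, fewer cells of a type and less RNA per cell cannot be told apart.

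Most members were expressed in every group. A mean of at least 1 CPM was reached by 71 of the 75 in each group, and at least 10 CPM by 57 (TRα1PV M2) to 62 (TRα1PV M1). Per kilobase of exon in WT M0, Brd2 (33.3 CPM per kb), Sirt2 (32.6) and Kmt5c (22.4) stood highest, and Dnmt3c (0.0218), Tet1 (0.0193) and Kdm4d (0.0035) lowest. The Brd2 and Sirt2 means lay within 1 unit of each other on this scale, so no order was read between them.

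The first question, stated in the design, was how TRα1PV macrophages differ from WT in each state. In M0, Kdm6b and Hdac7 were lower in TRα1PV, and Hdac9 and Kdm7a were higher. In M1, Hdac9, Setd4, Hdac6 and Dnmt1 were higher. In M2, Kdm6b, Hdac7 and Sirt3 were lower, and Kmt5a, Hdac9 and Kdm7a were higher. Calls are at a Benjamini-Hochberg adjusted p under 0.05 in edgeR's quasi-likelihood test over all genes tested, with no minimum fold.

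In M0, 9 of the 74 tested members were higher (12.2%, against 12.0% of all genes tested) and 12 were lower (16.2%, against 14.0%). The shares lay near the background in both directions. In M1, 14 were higher (18.9%, against 9.74%) and 2 were lower (2.7%, against 10.2%). In M2, 3 were higher (4.1%, against 6.14%) and 7 were lower (9.5%, against 6.96%). The median log2 fold change of the members was -0.01 in M0, 0.05 in M1 and -0.01 in M2, and that of all genes was -0.01, 0.00 and -0.01. The members' median absolute log2 fold change was 0.12, 0.13 and 0.11, against 0.21, 0.20 and 0.18 over all genes. The members were not matched to all genes for expression level, and the part of level in this was not tested. Without the M0 libraries numbered 2, 14 members were higher and 18 lower in M0, and with only the M0 libraries in the fit 4 were higher and 5 lower. With each library's percentage of reads outside genes added to the model (the unassigned-read covariate), the M0 counts were 3 and 9 and the M1 counts 21 and 10. The shares of all genes called under these other settings are not given here. These counts thus have no background, and nothing about the members was read from their changes.

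Over the 3 states, 35 of the 74 members (47.3%) were called at least once in either direction, against 42.9% of all genes tested, and 39 were never called. The share lay near the background, and counts of a family called in at least 1 state are to be read against the same 42.9%. Of the 21 members called in M0, 8 stayed called in all 7 alternatives other than leaving out 1 library, as did 10 of the 16 in M1 and 7 of the 10 in M2, and the calls that ended are given beside their genes. Hdac9 (higher) and Kdm6b (lower) were called in all 3. Sirt2 was lower in M0 and higher in M1, and Kmt5c was higher in M1 and lower in M2. No other member was called in opposite directions in 2 of the 3 states.

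**Figure D1:**
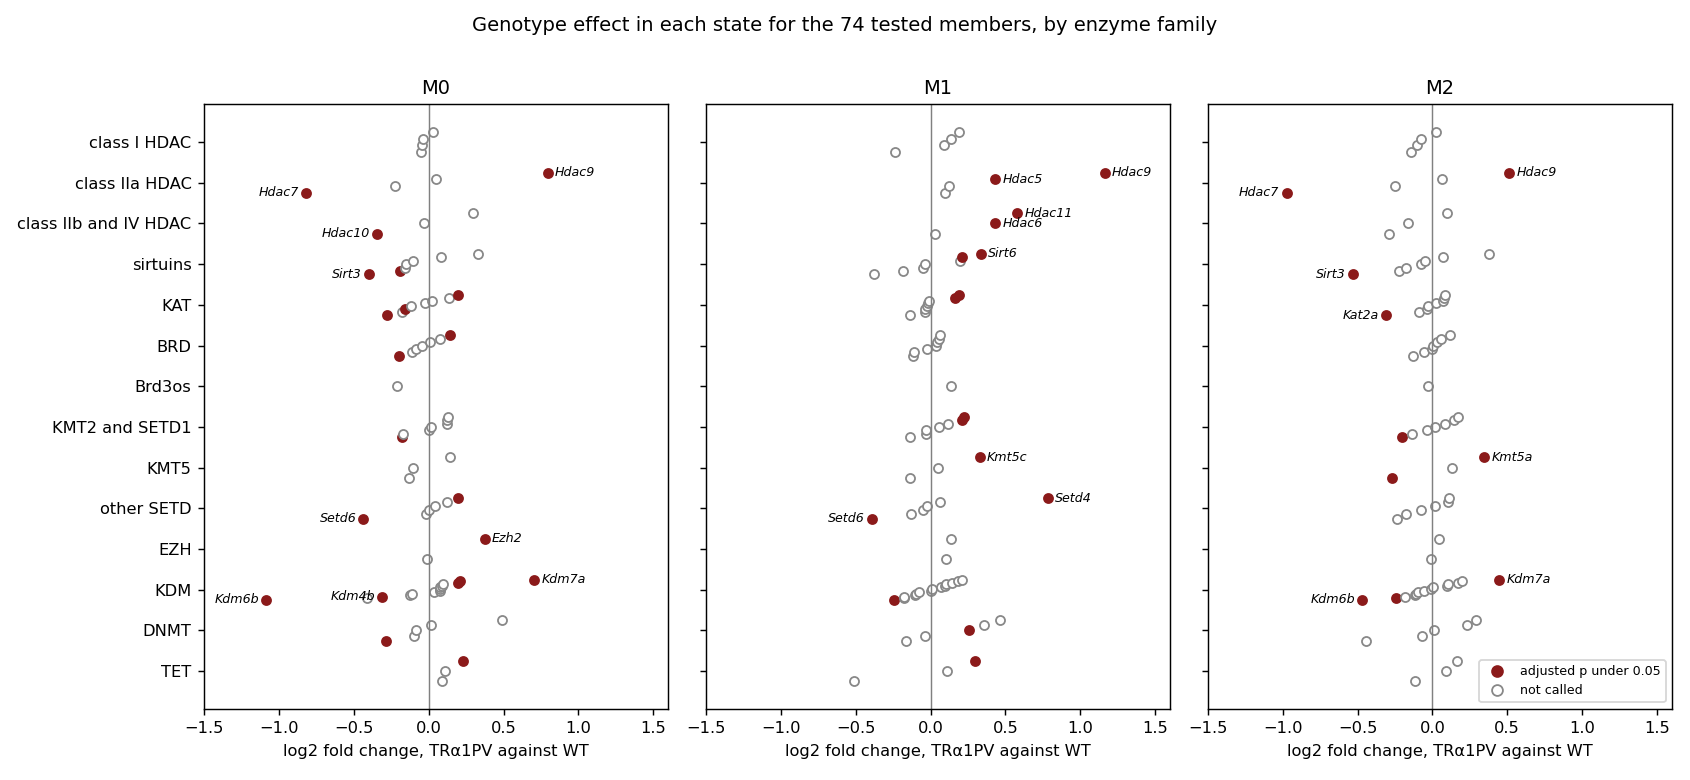
Log2 fold change of TRα1PV against WT (x axis) for the 74 tested members in M0, M1 and M2, with 1 row per enzyme family (y axis); each point is 1 gene, filled where its adjusted p was under 0.05, and called members at 0.3 or more are named. Kdm6b lies at -1.08, -0.25 and -0.47, Hdac9 at 0.79, 1.16 and 0.51, and the 4 class I HDAC genes are unfilled in all 3 states.

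The second comparison was between states within a genotype. With M1, Dnmt3l and Brd2 rose and Dnmt3b fell in both genotypes. In WT, 31 members rose (41.9%, against 39.4% of all genes tested) and 25 fell (33.8%, against 40.2%). In TRα1PV, 34 rose (45.9%, against 40.0%) and 22 fell (29.7%, against 40.7%). Of these, 27 members rose in both genotypes and 20 fell in both, and Hdac6 was called in opposite directions. The same overlap over all genes tested is not given here. The members' median log2 fold change was 0.05 in WT and 0.11 in TRα1PV, against -0.02 for all genes in each.

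With M2, the members went mostly down. In WT, 7 rose (9.5%, against 25.2%) and 35 fell (47.3%, against 27.2%), and in TRα1PV 9 rose (12.2%, against 28.3%) and 36 fell (48.6%, against 29.4%). Of these, 33 members fell in both genotypes, which is 94.3% of those in WT and 91.7% of those in TRα1PV. The same overlap over all genes is not given here, so nothing particular to the members was read from it. The changes were small, with a median over the members of -0.21 in each genotype, against -0.02 for all genes. Kmt5a, Ezh2, Dnmt3a, Tet2 and Kat14 rose in both. Across both stimuli and genotypes, 5 members were called in no comparison with M0: Brd3os, Brd7, Kdm3a, Kmt2e and Sirt7. Among 20 proliferation markers, 20 rose with M2 in WT and 18 in TRα1PV, and their summed level was 549.8 to 798.1 CPM in WT M2 and 258.9 to 358.9 CPM in WT M0; their part in the members' changes was not tested.

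**Figure D2:**
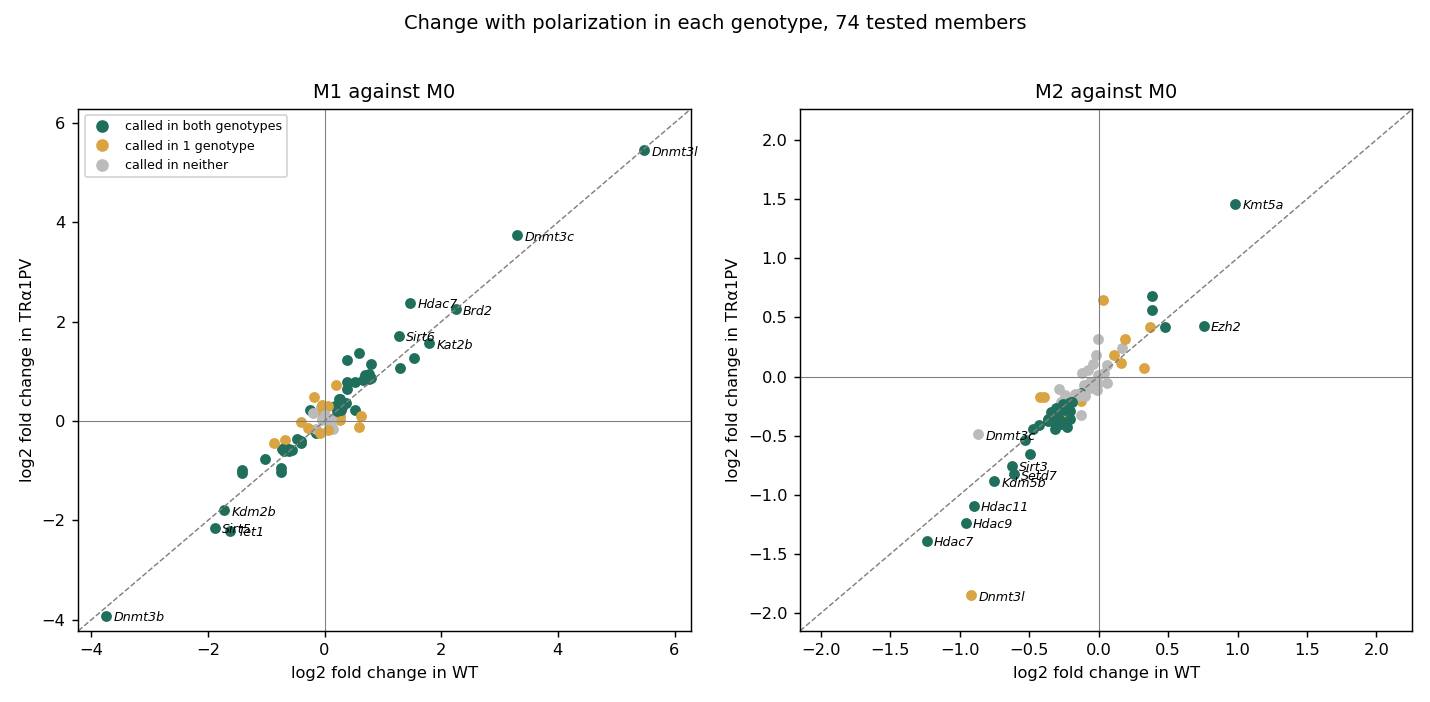
Log2 fold change of M1 (left) and M2 (right) against M0 in WT (x axis) and in TRα1PV (y axis) for the 74 tested members, coloured by the number of genotypes in which the change was called; the dashed line marks equal values and the 10 largest mean changes are named. Dnmt3l reaches 5.48 and 5.45 with M1, and most points of the M2 panel lie below 0 on both axes.

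The third comparison asked whether the genotype effect itself differed between states. Against M0, the effect in M1 was higher for 12 members (16.2%, against 13.3% of all genes tested) and lower for 5 (6.8%, against 13.3%). Kdm6b, Hdac7, Setd4, Sirt2, Dnmt1, Hdac5 and Kmt5c were among the 12, and Kdm5a, Kdm7a and Sirt1 among the 5. Against M0, the effect in M2 was higher for 2 members, Kdm6b and Kmt5a (2.7%, against 0.701%), and lower for 0 (against 1.46%). At an unadjusted p under 0.05 there were 8 members in either direction in M2. The share of all genes at that p is not given here, so nothing was read from the 8. DESeq2 also called 2 higher and 0 lower in M2. Without the M0 libraries numbered 2, the M1 counts were 21 and 12, and without WT M0 replicate 2 alone they were 19 and 12. The shares of all genes under these 2 settings are not given here. The differences of the genotype effect share the M0 libraries with the M0 comparison.

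**Figure D3:**
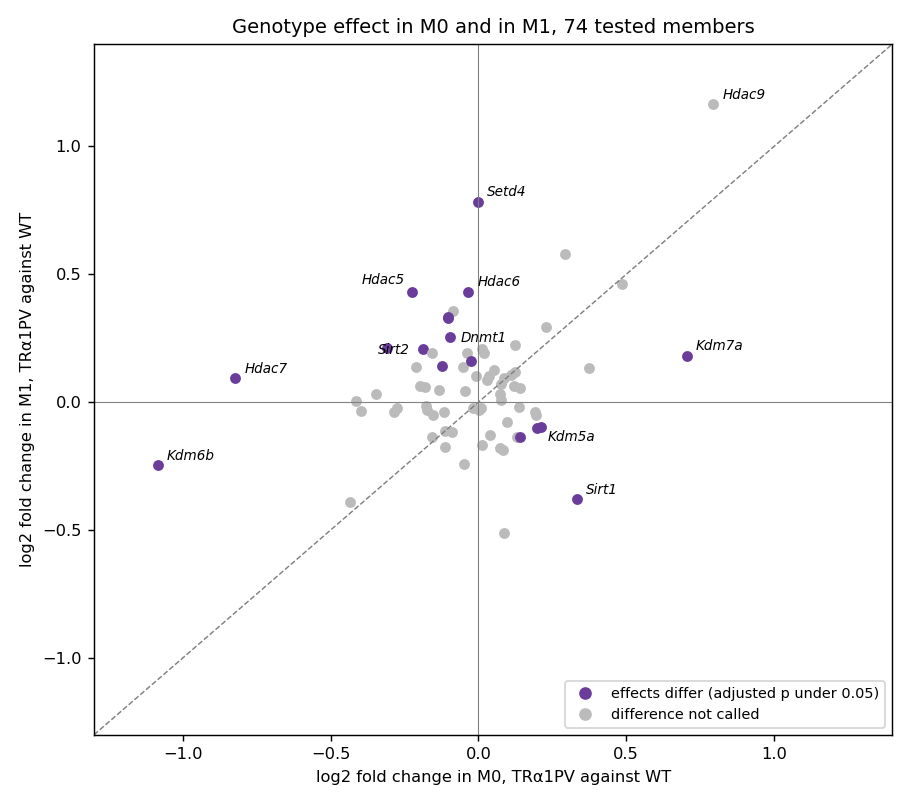
Log2 fold change of TRα1PV against WT in M0 (x axis) and in M1 (y axis) for the 74 tested members, with the 17 members whose effect differed between these states in purple; the dashed line marks equal effects. Kdm6b moves from -1.08 to -0.25 and Hdac7 from -0.82 to 0.09, while Hdac9 stays high in both and its difference was not called.

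Among the demethylases, Kdm6b had the smallest p in M0 of all members and stood 13th among all genes tested. It encodes an enzyme that removes the repressive trimethyl mark from lysine 27 of histone H3. Its levels in WT M0 replicates 1 to 5 were 43.5, 48.6, 47.0, 47.7 and 45.4 CPM, and those in TRα1PV M0 were 22.2, 24.0, 24.2, 19.9 and 19.2 CPM. The groups did not overlap, and the highest TRα1PV library lay well below the lowest WT library. In M1 the WT libraries held 68.7, 56.7, 60.1, 58.2 and 59.7 CPM and the TRα1PV libraries 54.9, 49.4, 53.8, 51.2 and 46.3 CPM. In M2 they held 46.8, 43.5, 49.6, 47.9 and 50 CPM in WT and 32.4, 35.1, 38.0, 34.4 and 31.8 CPM in TRα1PV. The genotypes were separate in these states too, with the smallest gap in M1. The log2 fold change was -1.08 ± 0.07 in M0 (SE, adjusted p = 7.22e-13), -0.25 ± 0.07 in M1 (adjusted p = 0.00946) and -0.47 ± 0.07 in M2 (adjusted p = 1.43e-05).

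Kdm6b rose with M1 by 0.39 ± 0.07 in WT and 1.22 ± 0.07 in TRα1PV, and with M2 by 0.65 ± 0.07 in TRα1PV, where WT was at 0.03 ± 0.07 (adjusted p = 0.705). The genotype effect was 0.84 ± 0.10 higher in M1 than in M0 (adjusted p = 1.36e-06) and 0.61 ± 0.10 higher in M2 (adjusted p = 3.85e-04). Without the M0 libraries numbered 2, the M0 value was -1.10, and it ranged from -1.12 to -1.04 over 17 alternatives. An antisense gene, Kdm6bos, shares 286 exonic bases with Kdm6b, and the sources used here do not say whether counting used strand. Kdm6bos held 239 reads over all libraries and was also lower in TRα1PV M0 (-1.22 ± 0.36, adjusted p = 0.0112), and reads of the shared bases cannot be told apart.

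Kdm7a, a demethylase of lysines 9 and 27 of histone H3, went the other way. It held 77.4, 122.5, 88.4, 70.1 and 98.3 CPM in WT M0 and 143.7, 126.4, 162.1, 162.6 and 148.9 CPM in TRα1PV M0. The groups were just separate, and the highest WT library was replicate 2, which stands apart in its mitochondrial reads. The log2 fold change was 0.70 ± 0.12 (adjusted p = 8.24e-05), 0.89 without the M0 libraries numbered 2 and 0.49 with the unassigned-read covariate. In M2, Kdm7a was higher by 0.45 ± 0.12 (adjusted p = 0.0142), with 156.4 ± 8.45 CPM against 114.6 ± 15.9 CPM (SD, n = 5 per group). That call ended without WT M2 replicate 5 (adjusted p = 0.0541), and over 17 alternatives the adjusted p ranged from 0.00154 to 0.0541. In M1 the value was 0.18 ± 0.12 (adjusted p = 0.309), and the effect there was 0.52 ± 0.17 lower than in M0 (adjusted p = 0.0253), a call that ended without any 1 of 7 libraries (adjusted p up to 0.0605).

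Of the 14 tested demethylase genes, Kdm3a (0.21) and Kdm5a (0.20) were also higher in TRα1PV M0 and Kdm4b (-0.31) was lower. These 3 calls ended with the unassigned-read covariate, those of Kdm3a and Kdm4b also with only the M0 libraries, and that of Kdm3a also without a filter on low counts. Leaving out any 1 of 8 M0 libraries ended the call of Kdm3a, and any 1 of 5 that of Kdm4b (adjusted p up to 0.159 and 0.0961). In M1, 1 of the 14 was called (Kdm6b, lower), where 9.74% of all genes tested were higher and 10.2% lower. In M2, Kdm5b (-0.24) was lower beside Kdm6b, and Kdm7a was higher. The Kdm5b call ended with the covariate, without a filter, and without any 1 of 6 M2 libraries (adjusted p up to 0.111). Kdm5a removes methyl groups from lysine 4 of histone H3, and its genotype effect was 0.30 ± 0.08 lower in M1 than in M0 (adjusted p = 0.00708). Kdm2b, a subunit of a variant polycomb complex, fell with M1 from 45.4 ± 3.96 to 13.8 ± 0.724 CPM in WT and from 48.0 ± 2.37 to 13.9 ± 0.796 CPM in TRα1PV. The log2 changes were -1.72 ± 0.06 and -1.79 ± 0.06, with adjusted p of 1.81e-21 and 6.19e-22. Kdm5b, another lysine 4 demethylase, fell with M2 by 0.75 ± 0.08 in WT and 0.88 ± 0.08 in TRα1PV (adjusted p = 1.47e-09 and 3.56e-11). With M2, the other demethylases that fell in both genotypes were Kdm1a, Kdm2a, Kdm2b, Kdm3b and Kdm5a.

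**Figure D4:**
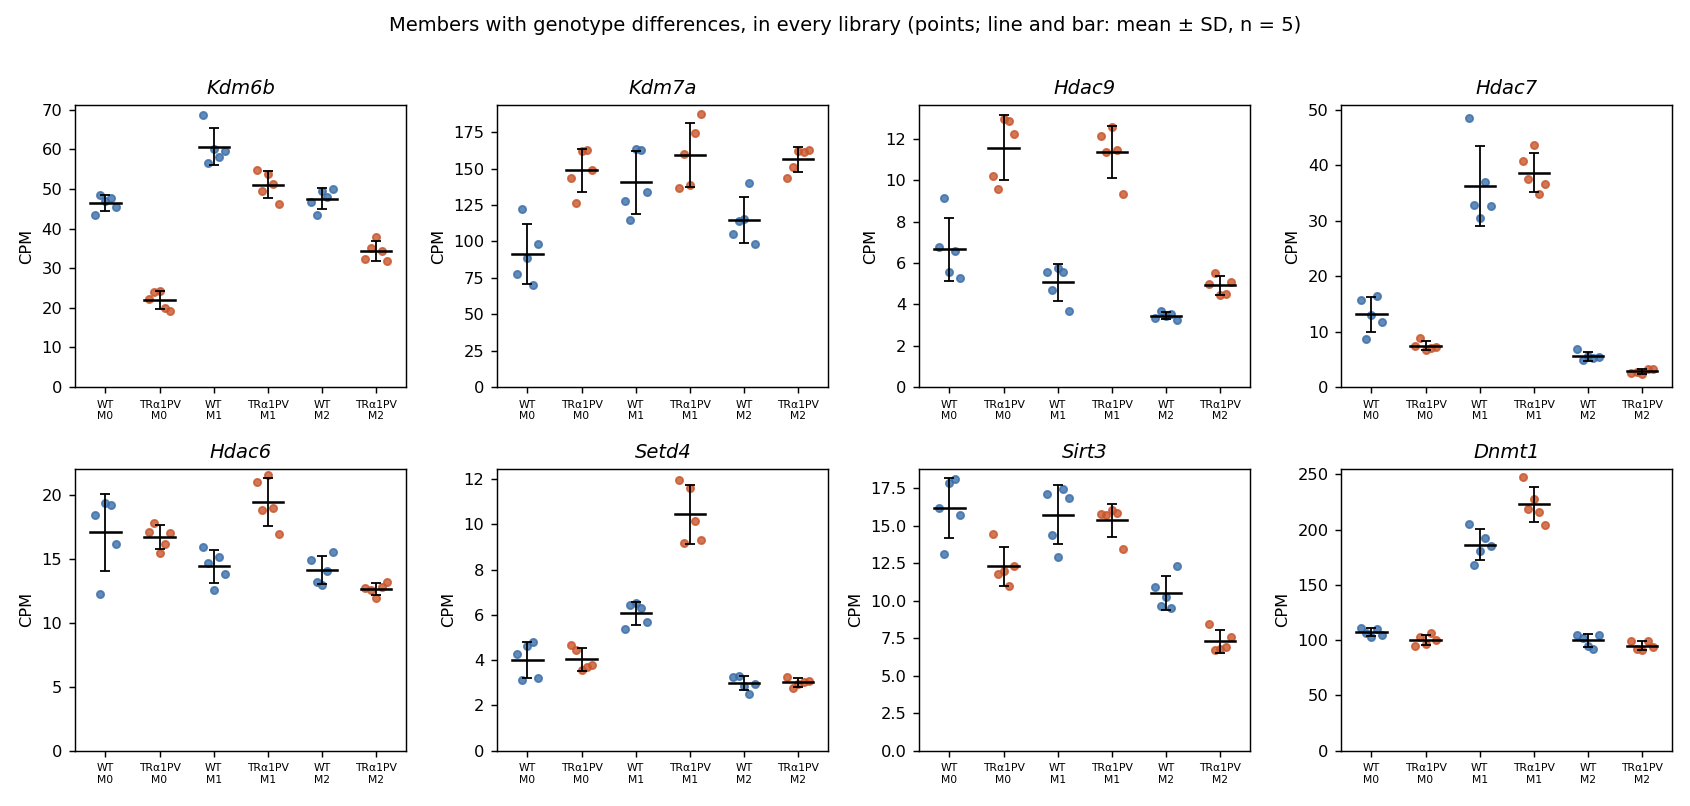
Level of 8 members in CPM (y axis, from 0) in the 6 groups of genotype and state (x axis); points are the 5 libraries of a group, and the line and bar are the mean ± SD. Kdm6b in TRα1PV M0 lies between 19.2 and 24.2 CPM, below the lowest WT M0 library at 43.5, and Setd4 is separate between genotypes in M1.

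Among the deacetylases, 3 of the 4 class IIa genes and 0 of the 4 class I genes were called between genotypes in at least 1 state, against 42.9% of all genes tested. With 4 genes in each class, no difference between the classes was read from these counts. Class IIa enzymes shuttle between nucleus and cytoplasm and have weak activity of their own. Hdac9 held 6.77, 9.14, 5.57, 6.57 and 5.28 CPM in WT M0 and 10.2, 9.57, 12.9, 12.8 and 12.2 CPM in TRα1PV M0. In M1 the values were 5.57, 4.70, 5.76, 5.58 and 3.67 CPM in WT and 12.2, 11.3, 12.6, 11.4 and 9.32 CPM in TRα1PV. The genotypes did not overlap in either state, although WT M0 replicate 2 came close to the lowest TRα1PV library. In M2 Hdac9 held 3.34, 3.66, 3.43, 3.54 and 3.22 CPM in WT and 4.99, 5.53, 4.47, 4.47 and 5.09 CPM in TRα1PV, again without overlap. The log2 fold changes were 0.79 ± 0.13 in M0, 1.16 ± 0.13 in M1 and 0.51 ± 0.14 in M2 (adjusted p = 2.25e-05, 3.49e-07 and 0.0111). Without the M0 libraries numbered 2 the M0 value was 1.00. The effect in M1 minus that in M0 was 0.37 ± 0.18 and did not pass (adjusted p = 0.128). With M2, Hdac9 fell by 0.96 ± 0.13 in WT and 1.24 ± 0.13 in TRα1PV (adjusted p = 4.75e-07 and 1.12e-09).

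Hdac7, another class IIa gene, was lower in TRα1PV in M0 and M2. It held 15.8, 8.68, 12.96, 16.4 and 11.8 CPM in WT M0 and 7.45, 8.88, 6.73, 6.96 and 7.18 CPM in TRα1PV M0. The groups overlapped through the libraries numbered 2, and without them the log2 fold change of -0.82 ± 0.14 (adjusted p = 5.37e-05) became -1.01. In M2 it held 6.88, 4.82, 5.50, 5.16 and 5.45 CPM in WT and 2.56, 2.64, 2.40, 3.20 and 3.26 CPM in TRα1PV, with no overlap and a log2 fold change of -0.97 ± 0.16 (adjusted p = 6.56e-05). In M1 the libraries overlapped at 48.5, 32.8, 30.4, 36.9 and 32.6 CPM in WT and 40.9, 37.5, 43.6, 34.8 and 36.7 CPM in TRα1PV (0.09 ± 0.13, adjusted p = 0.663). The effect in M1 was 0.92 ± 0.19 higher than in M0 (adjusted p = 0.00102). Hdac7 rose with M1 by 1.47 ± 0.14 in WT and 2.38 ± 0.14 in TRα1PV (adjusted p = 3.63e-11 and 7.22e-16), and fell with M2 by 1.24 ± 0.14 and 1.39 ± 0.15 (adjusted p = 1.58e-08 and 3.32e-09). Hdac7 thus had its highest levels in M1 and its lowest in M2 in both genotypes.

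Hdac5 was higher in TRα1PV M1 by 0.43 ± 0.12 (adjusted p = 0.00825), and this effect was 0.66 ± 0.16 above that in M0 (adjusted p = 0.00428). Its M1 libraries overlapped, with 94.7 ± 12.8 CPM in TRα1PV and 70.2 ± 13.9 CPM in WT (SD, n = 5 per group). Hdac4, the fourth class IIa gene, was called in no genotype comparison. Of the class I genes Hdac1, Hdac2, Hdac3 and Hdac8, 0 of 4 were called between genotypes in any state, and Hdac3, the deacetylase of the NCoR complex, was at -0.05 ± 0.07, 0.14 ± 0.08 and -0.11 ± 0.08 (adjusted p = 0.648, 0.212 and 0.349). With the unassigned-read covariate, Hdac1, Hdac2 and Hdac3 passed in M1. With M1, Hdac1 rose and Hdac2 and Hdac8 fell in both genotypes.

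Hdac6, a class IIb enzyme known for deacetylating tubulin, was higher in TRα1PV M1. The libraries held 15.9, 14.7, 12.6, 15.2 and 13.9 CPM in WT M1 and 21.1, 18.8, 21.6, 19.0 and 16.9 CPM in TRα1PV M1, without overlap. The log2 fold change was 0.43 ± 0.09 (adjusted p = 0.00153), against -0.03 ± 0.09 in M0 and -0.16 ± 0.09 in M2 (adjusted p = 0.82 and 0.253). With M1 it fell by 0.25 ± 0.09 in WT and rose by 0.22 ± 0.09 in TRα1PV (adjusted p = 0.0184 and 0.031), and the difference of 0.47 ± 0.13 passed (adjusted p = 0.0106). The fall in WT was not called with only the WT libraries of M0 and M1 in the fit, and the rise in TRα1PV was not called without a filter on low counts or with the unassigned-read covariate. Each also ended without any 1 of 3 libraries (adjusted p up to 0.068 in WT and 0.0897 in TRα1PV). Hdac11, the class IV gene, was higher in TRα1PV M1 by 0.58, and Hdac10 was lower in TRα1PV M0 by 0.35 on the log2 scale. The Hdac11 call ended without a filter and without any 1 of 7 M1 libraries (adjusted p up to 0.109). That of Hdac10 ended with the covariate, without a filter, with only the M0 libraries, and without any 1 of 7 of them (adjusted p up to 0.138). With M2, Hdac11 fell by 0.90 ± 0.20 in WT and 1.09 ± 0.19 in TRα1PV (adjusted p = 3.15e-04 and 1.16e-05), at levels of 1.15 to 2.62 CPM.

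Sirtuins are deacylases that need NAD, and 3 of the 7 were called between genotypes in at least 1 state, against 42.9% of all genes tested. Sirt3, the main deacetylase of mitochondria, held 16.1, 13.1, 17.9, 18.1 and 15.7 CPM in WT M0 and 14.4, 11.8, 12.0, 10.96 and 12.3 CPM in TRα1PV M0. In M2 it held 10.9, 9.64, 10.2, 9.51 and 12.3 CPM in WT and 8.46, 6.68, 6.75, 6.94 and 7.56 CPM in TRα1PV. The M0 groups overlapped through WT replicate 2 and TRα1PV replicate 1, and the M2 groups were separate. Sirt3 was lower by 0.40 ± 0.10 in M0 and 0.53 ± 0.10 in M2 on the log2 scale (adjusted p = 0.00304 and 5.88e-04), and was at -0.04 ± 0.10 in M1 (adjusted p = 0.839). With M2 it fell by 0.62 ± 0.10 in WT and 0.76 ± 0.10 in TRα1PV (adjusted p = 3.82e-06 and 1.37e-07). Ric8a and Psmd13, on the opposite strand, share 7.0 and 5.73% of the exonic bases of Sirt3 and were also lower in TRα1PV M0 (-0.32 ± 0.08 and -0.28 ± 0.06) and M2 (-0.26 ± 0.08 and -0.19 ± 0.06). Reads from these genes and from Sirt3 cannot be told apart without the strand setting, so the Sirt3 values are uncertain.

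Sirt6, a nuclear sirtuin, was higher in TRα1PV M1 by 0.33 ± 0.09 (adjusted p = 0.00636), with 37.7 ± 4.84 CPM against 29.9 ± 1.595 CPM in WT (SD, n = 5 per group) and no overlap. It rose with M1 in both genotypes, by 1.27 ± 0.09 and 1.71 ± 0.09 (adjusted p = 4.47e-14 and 3.01e-17). Sirt2, a mostly cytoplasmic deacetylase, was lower in TRα1PV M0 by 0.19 and higher in M1 by 0.21, and the difference of 0.40 ± 0.08 passed (adjusted p = 9.92e-04). Nfkbib, which shares 42 exonic bases with Sirt2 on the opposite strand, was lower in TRα1PV M0 (-0.41 ± 0.09) and had a difference of 0.43 ± 0.12 of the same sign. The M0 call of Sirt2 ended without a filter on low counts, with only the M0 libraries, with the unassigned-read covariate, and without WT M0 replicate 4 (adjusted p = 0.0619). Its M1 call ended without a filter and without TRα1PV M1 replicate 1 (adjusted p = 0.0573). Sirt5, which removes succinyl and related groups, fell with M1 from 5.69 ± 0.558 to 1.54 ± 0.572 CPM in WT and from 6.03 ± 0.716 to 1.37 ± 0.365 CPM in TRα1PV. Those changes were -1.88 ± 0.17 and -2.15 ± 0.17 on the log2 scale (adjusted p = 2.39e-11 and 1.32e-12). Sirt1 was at 0.33 in M0, -0.38 in M1 and 0.38 in M2 (adjusted p = 0.131, 0.103 and 0.113), and the difference of M1 from M0 passed (-0.71 ± 0.23, adjusted p = 0.0232), though not without any 1 of 5 libraries (adjusted p up to 0.0555).

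Among the acetyltransferases, genotype differences were small. Kat2a was lower in TRα1PV in M0 (-0.28) and in M2 (-0.31 ± 0.08, adjusted p = 0.00868), with 26.4 ± 0.36 CPM in TRα1PV M2 and 32.7 ± 2.35 CPM in WT M2 and no overlap. Kat2a and Kat2b encode the related GCN5 and PCAF enzymes. Kat2b was higher in TRα1PV M0 (0.19), Kat14 was lower there (-0.16), and Kat5 (0.16) and Kat7 (0.19) were higher in TRα1PV M1. The M0 calls of Kat2a, Kat2b and Kat14 ended with the covariate and with only the M0 libraries, and those of Kat2b and Kat14 also without a filter. The M1 calls of Kat5 and Kat7 ended without a filter, and that of Kat5 also with only the M1 libraries. Rnaseh2c, on the opposite strand, shares 12.1% of the exonic bases of Kat5. It was also higher in TRα1PV M1 (0.40 ± 0.14, adjusted p = 0.0367), and reads of the shared bases cannot be told apart. Leaving out 1 library ended the call of Kat2b in 5 cases, Kat5 in 3, Kat14 in 2 (TRα1PV M0 replicate 3 and WT M0 replicate 4) and Kat7 in 1 (WT M1 replicate 3). With M1, Kat2b rose from 48.5 ± 4.69 to 167.8 ± 8.60 CPM in WT and from 55.4 ± 1.84 to 163.5 ± 15.1 CPM in TRα1PV, while Kat2a fell in both. The Kat2b changes were 1.79 ± 0.07 and 1.56 ± 0.07 (adjusted p = 2.07e-20 and 4.64e-19). With M2, Kat14 rose and Kat5, Kat6a and Kat8 fell in both genotypes.

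Brd2 encodes a bromodomain protein of the BET family, which binds acetylated histones. It was the most abundant member in M1, with 1112, 1300, 1258, 1237 and 1276 CPM in WT M1 and 1173, 1108, 1171, 1125 and 1141 CPM in TRα1PV M1. In M0 the WT libraries held 265.2, 271.0, 256.6, 260.5 and 248.5 CPM and the TRα1PV libraries 235.8, 248.5, 236.2, 251.0 and 231.0 CPM. The states were far apart in both genotypes, and the rise was 2.25 ± 0.05 in each (adjusted p = 1.29e-26 and 1.19e-26). With M2 Brd2 was at 0.04 and 0.03, and neither passed. Between genotypes it was at -0.11, -0.11 and -0.13 in M0, M1 and M2 and did not pass (adjusted p = 0.0632, 0.0789 and 0.0618), although DESeq2 called it lower in all 3. H2-DMa, an MHC class II gene on the opposite strand, shares 360 exonic bases with Brd2 (4.6% of its exons) and rose with M1 by 2.49 ± 0.12 in WT and 2.11 ± 0.11 in TRα1PV, and with M2 by 2.67 ± 0.12 and 2.17 ± 0.11. Of the other BRD genes, Brd1, Brd3, Brd8 and Brd9 fell with M1 and with M2 in both, and Brd7 was called in no comparison. In TRα1PV M0, Brd8 was higher (0.14), but not with the covariate, without a filter, with only the M0 libraries, or without any 1 of 3 of them, TRα1PV replicate 3 and WT replicates 1 and 3 (adjusted p up to 0.106). Brd3os, annotated as protein-coding in the table used here, lies antisense to Brd3 and was called in no comparison, at 1.05 to 1.37 CPM.

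Among the histone methyltransferases, Setd4 was higher in TRα1PV in M1. The libraries held 5.36, 6.45, 6.51, 6.32 and 5.69 CPM in WT M1 and 12.0, 9.15, 11.6, 10.2 and 9.29 CPM in TRα1PV M1. The groups were separate, and the log2 fold change was 0.78 ± 0.12 (adjusted p = 1.57e-05). In M0 and M2 Setd4 was at -0.00 ± 0.12 and 0.02 ± 0.12 (adjusted p = 0.998 and 0.948), and the effect in M1 was 0.78 ± 0.16 above that in M0 (adjusted p = 0.00105). Setd6, known for methylating the RelA subunit of NF-κB, was lower in TRα1PV M0 (-0.44 ± 0.11, adjusted p = 0.00551) and M1 (-0.39). The M1 call ended with only the M1 libraries and without WT M1 replicate 1 or TRα1PV M1 replicate 5 (adjusted p up to 0.0824). Setd7, a lysine 4 monomethyltransferase, fell with M2 from 170.1 ± 16.8 to 111.5 ± 8.98 CPM in WT and from 175.0 ± 7.59 to 98.6 ± 5.27 CPM in TRα1PV. Those changes were -0.61 ± 0.06 and -0.83 ± 0.06 (adjusted p = 9.20e-10 and 9.21e-13).

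The KMT5 family methylates lysine 20 of histone H4, with Kmt5a placing the first methyl group and Kmt5b and Kmt5c the next. Kmt5a held 40.9, 57.6, 45.3, 47.6 and 48.5 CPM in WT M0 and 38.4, 41.0, 45.1, 52.7 and 41.7 CPM in TRα1PV M0. In M2 it held 76.8, 96.2, 96.1, 100.9 and 104.0 CPM in WT and 105.9, 131.1, 129.2, 116.4 and 119.7 CPM in TRα1PV. The M0 groups overlapped, and the M2 groups were just separate. Kmt5a rose with M2 by 0.98 ± 0.09 in WT and 1.46 ± 0.09 in TRα1PV (adjusted p = 7.43e-11 and 8.11e-15). It was higher in TRα1PV M2 by 0.35 ± 0.09 (adjusted p = 0.00764), and the difference from M0 was 0.48 ± 0.12 (adjusted p = 0.0314). That difference did not pass in 9 of 27 alternatives, among them leaving out the M0 libraries numbered 2 (0.39, adjusted p = 0.0786), with adjusted p between 0.00362 and 0.105 over all of them. Among the single libraries left out, those that ended it were WT M2 replicates 1 and 2, WT M0 replicate 5, TRα1PV M0 replicates 1 and 2 and TRα1PV M2 replicates 2 and 3. Kmt5c was higher in TRα1PV M1 (0.33 ± 0.09, adjusted p = 0.0071) and lower in M2 (-0.27 ± 0.08, adjusted p = 0.0322), and the M1 effect was 0.43 ± 0.12 above that in M0 (adjusted p = 0.00928). Its M2 call ended in 8 of 17 alternatives (adjusted p up to 0.097). With M2, Kmt5c fell by 0.49 ± 0.08 and 0.66 ± 0.08 (adjusted p = 1.15e-05 and 7.31e-08), and Kmt5b fell in both genotypes with M1 and with M2.

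Most of the 7 KMT2 and SETD1 genes encode enzymes that methylate lysine 4 of histone H3 in COMPASS complexes. Of these 7, Setd1b, Kmt2d, Kmt2b and Setd1a were called between genotypes in at least 1 state, against 42.9% of all genes tested. Setd1b was higher in TRα1PV M1 by 0.23 ± 0.06 (adjusted p = 0.00765), with 118.3 ± 5.10 CPM against 101.2 ± 9.05 CPM (SD, n = 5 per group). Kmt2d was also higher there (0.21), Kmt2b was lower in M0 (-0.18), and Setd1a was lower in M2 (-0.20). The Kmt2b call ended with a replicate block, with the covariate, without a filter and with only the M0 libraries, that of Kmt2d without a filter and with only the M1 libraries, and that of Setd1a with the covariate and without a filter. Leaving out 1 library ended them in 6, 4 and 9 cases (adjusted p up to 0.19, 0.128 and 0.143). Setd1a shares 51.9% of its exonic bases with the gene model Gm49388 on the same strand, so its count is uncertain. Setd2, which trimethylates lysine 36, was higher in TRα1PV M0 (0.20), but not with the covariate, without a filter, with only the M0 libraries, or without any 1 of 7 of them (adjusted p up to 0.158). With M1, Kmt2a, Kmt2c and Kmt2d rose in both genotypes. With M2, Kmt2a, Kmt2b, Kmt2d and Setd1b fell in both.

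Ezh2, the catalytic subunit of polycomb repressive complex 2 in dividing cells, was higher in TRα1PV M0 by 0.37 ± 0.10 (adjusted p = 0.00431). Its mean was 11.7 ± 1.03 CPM against 9.07 ± 1.08 CPM in WT M0 (SD, n = 5 per group), and the libraries did not overlap. Of the 20 proliferation markers, 0 were higher and 2 lower (10.0%) in TRα1PV M0, against 12.0 and 14.0% of all genes tested. The part of cell division or of other cells in the Ezh2 difference was not tested. Ezh2 rose with M1 in both genotypes, and with M2 by 0.76 ± 0.10 in WT and 0.43 ± 0.09 in TRα1PV (adjusted p = 7.95e-08 and 2.41e-04). Ezh1 rose with M1 and fell with M2 in both.

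Dnmt1, which copies DNA methylation after replication, was higher in TRα1PV M1. Its libraries held 205.3, 167.7, 181.0, 192.7 and 185.2 CPM in WT M1 and 247.1, 218.8, 228.0, 215.6 and 203.9 CPM in TRα1PV M1. The groups overlapped by WT replicate 1 and TRα1PV replicate 5, and the log2 fold change was 0.26 ± 0.06 (adjusted p = 0.00159). In M0 and M2 it was at -0.10 ± 0.06 and -0.07 ± 0.06 (adjusted p = 0.208 and 0.421), and the effect in M1 was 0.35 ± 0.08 above that in M0 (adjusted p = 0.00203). Of the 20 proliferation markers, Pcna (0.45) and Mki67 (0.36) were also higher in TRα1PV M1 and Mcm3 (-0.42) was lower. Their summed level was 460.3 to 524.7 CPM in TRα1PV M1 and 364.9 to 408.6 CPM in WT M1, and its part in the Dnmt1 difference was not tested. Dnmt3a, a de novo methyltransferase, was lower in TRα1PV M0 by 0.29 ± 0.07 on the log2 scale (adjusted p = 0.00509), with 148.9 ± 10.2 CPM against 181.6 ± 16.3 CPM (SD, n = 5 per group), and it rose with M2 in both genotypes. An antisense gene, Dnmt3aos, shares 133 exonic bases with it.

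The other de novo genes were scarce and changed most with M1. Dnmt3l, a cofactor without catalytic activity of its own, held 0.113, 0.051, 0.0246, 0.133 and 0.092 CPM in WT M0 and 3.72, 3.02, 3.43, 4.80 and 4.23 CPM in WT M1. In TRα1PV it held 0.158, 0.105, 0.0443, 0.159 and 0.139 CPM in M0 and 5.31, 5.50, 6.33, 5.59 and 3.73 CPM in M1. The M0 libraries held 16 reads in WT and 29 in TRα1PV in all, against 533 and 734 in M1. The rise was 5.48 ± 0.30 in WT and 5.45 ± 0.27 in TRα1PV (adjusted p = 9.33e-17 and 8.28e-18). With M2, Dnmt3l had 7 reads in WT and 6 in TRα1PV, and only the fall in TRα1PV passed (-1.85 ± 0.53, adjusted p = 0.00381; in WT -0.92 ± 0.58, adjusted p = 0.193).

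Dnmt3b, a de novo methyltransferase, went the other way with M1. It held 3.82, 3.04, 3.93, 4.09 and 3.59 CPM in WT M0 and 0.307, 0.336, 0.274, 0.212 and 0.237 CPM in WT M1. In TRα1PV it held 3.76, 3.85, 3.82, 3.66 and 3.55 CPM in M0 and 0.215, 0.393, 0.25, 0.189 and 0.185 CPM in M1. The changes were -3.74 ± 0.15 and -3.92 ± 0.15 (adjusted p = 6.01e-20 and 2.36e-20), with every M1 library below every M0 library of its genotype. Dnmt3c is a near copy of Dnmt3b, so reads may have been split between them and its values are uncertain. It held 9 and 11 reads in the M0 groups and 68 and 88 in the M1 groups, with 0, 0.128, 0, 0.0221 and 0.092 CPM in WT M0 and 0.376, 0.447, 0.48, 0.494 and 0.671 CPM in WT M1. In TRα1PV it held 0.045, 0.0262, 0, 0.112 and 0.0277 CPM in M0 and 0.538, 0.511, 1.07, 0.605 and 0.432 CPM in M1. The rise was 3.30 ± 0.59 in WT and 3.74 ± 0.54 in TRα1PV (adjusted p = 7.98e-06 and 2.58e-07), opposite in direction to Dnmt3b.

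Of the TET genes, Tet2, the main TET enzyme of blood cells, was higher in TRα1PV in M0 (0.23) and M1 (0.29), and rose with M1 and M2 in both genotypes. The M0 call ended with the covariate, without a filter, with only the M0 libraries, and without any 1 of 9 of them (adjusted p up to 0.187), and the M1 call without WT M1 replicate 2 (adjusted p = 0.0524). Tet3 fell with both stimuli. Tet1 had a mean of at most 0.314 CPM in any group, and its fall with M1 (-1.61 ± 0.56 in WT and -2.21 ± 0.58 in TRα1PV, adjusted p = 0.0097 and 0.00101) did not hold with the unassigned-read covariate (adjusted p = 0.141 and 0.0681). In WT it also ended without WT M0 replicate 2, at -1.01.

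**Figure D5:**
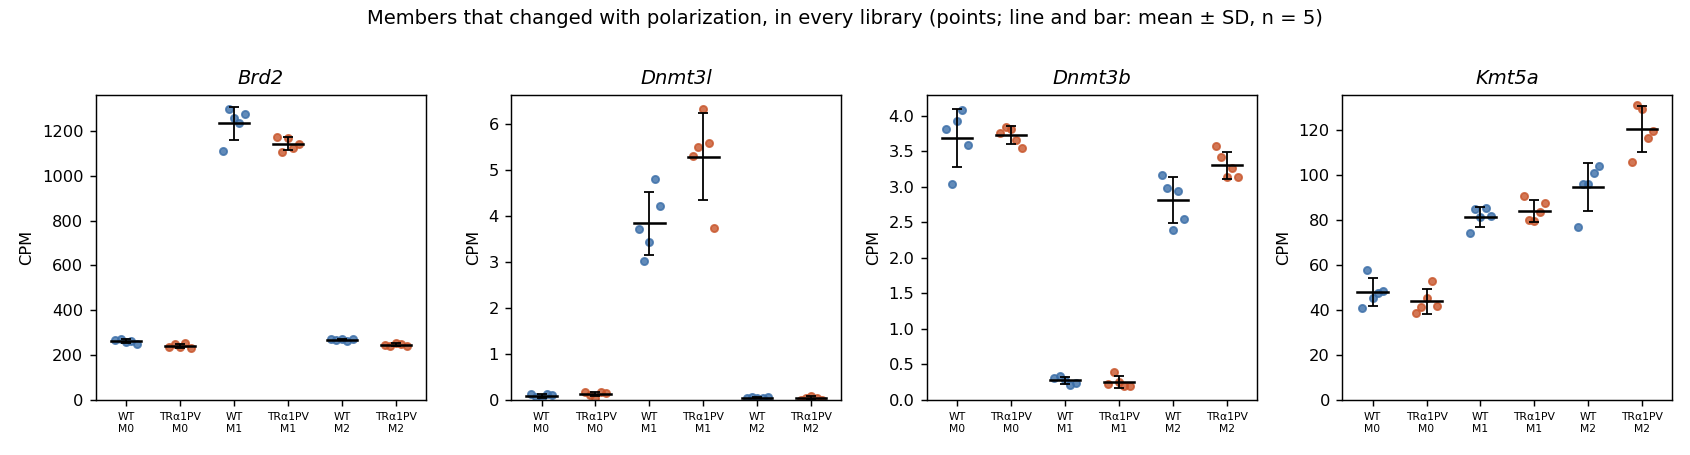
Level of Brd2, Dnmt3l, Dnmt3b and Kmt5a in CPM (y axis, from 0) in the 6 groups of genotype and state (x axis); points are the 5 libraries of a group, and the line and bar are the mean ± SD. Brd2 and Dnmt3l are highest in M1, Dnmt3b is near 0 in M1, and Kmt5a is highest in TRα1PV M2.

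Promoter windows with a match to a motif are shown for 4 members that changed with the stimuli. Interferon-γ and interleukin-4 act through STAT factors, whose sites have TTC followed by GAA after 3 or 4 bases. Thyroid hormone receptors bind repeats of the AGGTCA half-site. RefSeq windows on GRCm38.p6 of the 250 bases before the start were found for 60 of the 75 members (89 windows), and motifs were searched on both strands. TTC and GAA spaced by 3 occurred in 7.02% of all 32851 windows and in 8.99% of the members' windows, and spaced by 4 in 5.85 and 2.25%. The single half-site occurred in 14.0 and 11.2%, GAAA repeated after 2 bases, a core of interferon response elements, in 2.98 and 2.25%, and a direct repeat of the half-site spaced by 4 in 0.015% and in 0 of the 89. The members' share thus lay above that of all windows for the spacing of 3 and below it for the other motifs, and these shares were not tested. Of the 13 members given in every library, 11 had a window, and the 4 below are those with a match and the smallest p, printed 5′ to 3′ on the gene's strand with each match in capitals. They lie at chr17:34119901-34120150 (-) for Brd2, chr10:78049592-78049841 (+) for Dnmt3l, chr15:97831768-97832017 (-) for Hdac7 and chr5:124446454-124446703 (+) for Kmt5a. Each lies within its gene before an alternative start, and that of Brd2 also covers an exon of H2-DMa. The other windows of these 4 genes held no match, except a further window of Hdac7. Dnmt3b and Dnmt1, which also changed with M1, had no match in any window and are not shown.
Brd2: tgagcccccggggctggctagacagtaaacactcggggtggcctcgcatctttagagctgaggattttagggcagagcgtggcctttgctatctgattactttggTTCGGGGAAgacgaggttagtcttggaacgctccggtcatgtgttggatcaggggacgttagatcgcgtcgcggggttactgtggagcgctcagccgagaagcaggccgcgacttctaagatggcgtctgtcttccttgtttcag
Dnmt3l: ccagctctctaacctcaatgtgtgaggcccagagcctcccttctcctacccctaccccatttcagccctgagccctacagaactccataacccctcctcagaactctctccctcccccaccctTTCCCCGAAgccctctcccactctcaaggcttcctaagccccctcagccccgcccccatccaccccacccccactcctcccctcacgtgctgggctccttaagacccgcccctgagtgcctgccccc
Hdac7: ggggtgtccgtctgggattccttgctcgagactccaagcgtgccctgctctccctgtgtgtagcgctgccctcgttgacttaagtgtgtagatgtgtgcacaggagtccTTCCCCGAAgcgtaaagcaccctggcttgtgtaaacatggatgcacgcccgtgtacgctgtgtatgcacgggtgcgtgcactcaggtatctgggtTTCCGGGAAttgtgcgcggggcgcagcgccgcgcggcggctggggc
Kmt5a: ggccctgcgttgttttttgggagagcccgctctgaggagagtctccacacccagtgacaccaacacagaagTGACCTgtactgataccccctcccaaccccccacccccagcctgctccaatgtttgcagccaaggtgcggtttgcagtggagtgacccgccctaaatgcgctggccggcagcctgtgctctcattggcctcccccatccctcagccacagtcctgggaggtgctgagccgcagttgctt
In Brd2 the spaced TTC and GAA lie 145 to 137 bases before the start, in Dnmt3l 127 to 119, and in Hdac7 141 to 133 and again 46 to 38 bases before it. In Kmt5a the match is the half-site on the other strand, read as TGACCT, at 179 to 174 bases before the start. A match describes the letters of these windows only.

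Other genes of the same machinery were followed in 5 lists of 96 genes in all. These lists include Kdm5c and Kdm6a, which the rule for members leaves out by name. In TRα1PV M0, 14 were higher (14.6%, against 12.0% of all genes tested) and 21 lower (21.9%, against 14.0%). In M1, 19 were higher (19.8%, against 9.74%) and 7 lower (7.3%, against 10.2%), and in M2 4 were higher (4.2%, against 6.14%) and 8 lower (8.3%, against 6.96%). Of 28 other histone methyltransferases and acetyltransferases, Dot1l, which methylates lysine 79 of histone H3, was lower in TRα1PV M0 (-0.89 ± 0.09, adjusted p = 9.91e-09) and M2 (-0.59 ± 0.09, adjusted p = 2.45e-05), and Hat1 was higher in M0 (0.58 ± 0.11, adjusted p = 2.52e-04) and M2 (0.35 ± 0.11, adjusted p = 0.0307). Among 10 other demethylases and related erasers, 1 was higher (Kdm6a) and 4 lower in M0, with Phf2 lower in M0 (-0.30) and higher in M1 (0.29). Kdm5c was among those higher in M1. Hr, a lysine 9 demethylase and corepressor that thyroid hormone is known to induce, was lower in M2 (-2.92 ± 0.27 on the log2 scale, adjusted p = 3.17e-09). Hr rose with M2 by 6.09 ± 0.36 in WT and 4.19 ± 0.45 in TRα1PV.

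Of 22 corepressor complex genes, 3 were higher and 5 lower in TRα1PV M0, 3 and 1 in M1, and 0 and 3 in M2. Of all genes tested, 12.0 and 14.0% were called in these directions in M0, 9.74 and 10.2% in M1 and 6.14 and 6.96% in M2, so these lists of 9 to 27 genes differ from the background by few genes and nothing was read from their counts. The nucleosome remodellers Chd3 (-0.73 ± 0.07, adjusted p = 1.07e-08) and Chd4 (-0.24 ± 0.05, adjusted p = 3.61e-04) of the NuRD complex were lower in M0, and Suds3 and Gatad2a were higher in M1 (0.28 and 0.33). Among 27 polycomb and COMPASS partners, 4 were higher and 4 lower in M0, 6 and 2 in M1, and 1 and 0 in M2, with Pcgf5 (0.72 ± 0.12) among those higher in M0 and Pcgf2 (0.60 ± 0.09) in M1. Of 9 DNA methylation partners, 1 was higher and 2 lower in M0, where Apobec1, a cytidine deaminase gene, was lower by 0.60 ± 0.05 on the log2 scale (adjusted p = 1.51e-10), and 3 and 0 in M1. With M1, 46 of the 96 genes rose and 36 fell in WT (47.9 and 37.5%, against 39.4 and 40.2% of all genes) and 47 and 37 in TRα1PV (49.0 and 38.5%, against 40.0 and 40.7%). With M2, 20 rose and 39 fell in WT (20.8 and 40.6%, against 25.2 and 27.2%) and 29 and 36 in TRα1PV (30.2 and 37.5%, against 28.3 and 29.4%). Cbx7, a polycomb subunit, fell with M1 by 4.70 ± 0.16 and 4.21 ± 0.15, and Uhrf1, which guides Dnmt1 to replicated DNA and follows cell division, rose with M2 in WT by 2.46 ± 0.23. The median log2 fold change of the 96 was -0.07 with M2 in each genotype, against -0.21 for the members and -0.02 for all genes.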

How the data were processed

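The 30 libraries were polyA RNA prepared with a KAPA mRNA HyperPrep kit, per the labels' protocols. The authors deposited unnormalized read counts for each gene. The submitters' processing notes name Trimmomatic 0.39, FastQC 0.11.9, HISAT2 2.2.1, HTSeq 1.99.2, Cufflinks, edgeR, limma, R 4.3.2 and the GRCm39 build. The sources used here give neither the annotation release nor the strand setting. The 5 HTSeq summary lines, such as reads outside genes, were kept out of library sizes and tests. Gene symbols, biotypes and exon lengths came from a reference annotation matched by gene identifier (52081 of 55414 identifiers had a symbol).

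Counts were fitted with edgeR 4.0.16 (R 4.3.3, limma 3.58.1) by the quasi-likelihood test in 1 model of all 30 libraries that had 1 mean for each group (24 residual degrees of freedom). Genes passed a filter by group (minimum count 10, minimum total 15), were scaled by TMM, and p-values were Benjamini-Hochberg adjusted over the 15686 genes tested. Levels are CPM with TMM factors, and errors of fold changes are standard errors. The labels call the replicates biological but do not say whether they came from separate mice or cultures, so p-values measure the spread between these samples, which may be technical. Replicate pairs differed by more than sampling noise (chi-square per degree of freedom of 6.28 or more over 60 pairs). The script was tested on simulated counts.

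The labels number the replicates under a tag named batch, but do not say what libraries of the same number share. The main model held no term for this number, and a replicate block was run as an alternative. The correlation of same-numbered WT and TRα1PV deviations ran from -0.374 to 0.259 in M0, from -0.17 to 0.17 in M1 and from -0.023 to 0.212 in M2. Between states of 1 genotype it ran from -0.043 to 0.331 for TRα1PV M0 and M2 (4 of 5 pairs over 0.1), from -0.24 to 0.321 for WT M0 and M2 (3 of 5), and from -0.095 to 0.233 for WT and -0.085 to 0.21 for TRα1PV M0 and M1.

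Alternatives were size factors by RLE, DESeq2 1.42.0, no filter, only the libraries of the groups compared, a replicate block, each library's percentage of reads outside genes as a covariate, the M0 libraries numbered 2 left out, and each library left out. The members and lists were chosen with earlier results of these data known. Up to 8 called members with the smallest p were described per genotype comparison and per difference of genotype effects, and the 10 called members with the largest mean change per stimulus, with values in every library for the first 4. Other called members are named with their log2 fold change. Up to 3 called genes per partner list and comparison were eligible by smallest p, and promoters were limited to 4. Members named beyond this rule, such as Hdac3 and Sirt1, and the genes that overlap members were chosen after their values were seen. Values of some members are not reported here.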

Additional observations from a re-analysis of the deposited data

Results flagged for a closer look

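In 4 groups of 5 libraries, 1 library stood further from the others than Dixon's test allows; 78 groups were tested, and chance flags about 1 in 20 groups. Kdm6b was at 68.7 CPM in WT M1 replicate 1, with the others at 56.7 to 60.1. Sirt3 was at 13.42 CPM in TRα1PV M1 replicate 5, with the others at 15.7 to 16.0. Kmt5a was at 76.76 CPM in WT M2 replicate 1, with the others at 96.1 to 104.0. Dnmt3c was at 1.073 CPM in TRα1PV M1 replicate 3, with the others at 0.432 to 0.605.

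The genotype effect differed between M1 and M0 by edgeR's quasi-likelihood test of the difference itself. On the log2 scale the effect in M1 minus that in M0 was 0.8374 for Kdm6b, 0.3977 for Sirt2, 0.9156 for Hdac7, 0.7842 for Setd4 and 0.3536 for Dnmt1. It was 0.6563 for Hdac5, -0.2998 for Kdm5a and 0.4317 for Kmt5c. Between M2 and M0 the difference was 0.6142 for Kdm6b and 0.4774 for Kmt5a.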

How the results depend on the processing

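Of the 74 values that the rule for named members picked, 0 reversed under the alternatives run for them, and 5 lost their call at least once: Kdm7a and Kmt5c between genotypes in M2, Tet1 with M1 in each genotype, and the Kmt5a difference of M2 from M0. Over all called members, 13 of 21 between genotypes in M0, 6 of 16 in M1 and 3 of 10 in M2 lost their call in at least 1 of 7 alternatives, single libraries apart. With the stimuli it was 6 of 56 in WT M1, 9 of 56 in TRα1PV M1, 7 of 42 in WT M2 and 7 of 45 in TRα1PV M2, among them Brd8, Ezh1 and Kmt2a in WT M1 and Kat5 and Kmt5b in both M2 comparisons. Counts of called members moved more, and the cause was not tested. The shares of all genes called under the alternatives, single libraries included, are not given here, so these counts have no background. TRα1PV against WT in M0 gave 9 higher and 12 lower, and 5 and 7 with no filter, 4 and 5 with only the libraries compared, 3 higher with the covariate and 14 higher without the M0 libraries numbered 2. In M1 (14 and 2) there were 9 higher with no filter, 10 lower with the covariate and 1 lower with only the libraries compared. In M2 (3 and 7) there were 4 lower with no filter, 6 and 13 with only the libraries compared, and 5 higher without the M0 libraries numbered 2. The covariate gave 11 members that rose with M2 in WT (7) and 14 in TRα1PV (9). Without the M0 libraries numbered 2, the genotype effect was higher in M1 than in M0 for 21 and lower for 12 (12 and 5), and in M2 higher for 1 and lower for 1 (2 and 0), and with only the libraries compared it was higher in M2 for 1.

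Leaving out 1 library at a time, the M0 genotype counts ranged from 4 to 14 higher and 6 to 16 lower, and the M2 counts from 2 to 5 and 4 to 6. The effect in M1 minus that in M0 ranged from 11 to 19 higher and 1 to 12 lower, and that in M2 from 1 to 2 and 0 to 1. WT M0 replicate 2 gave the highest counts for M0 and for M1 minus M0. M0 higher counts of 4 or 5 came without WT M0 replicates 1, 3 or 4 or TRα1PV M0 replicates 3, 4 or 5, and M0 lower counts of 6 or 7 without WT M0 replicate 4 or TRα1PV M0 replicate 3. M2 lower counts of 4 came without WT M2 replicates 3 or 5 or TRα1PV M2 replicate 2, and the M2 higher count of 5 without WT M2 replicate 4. Lower counts of 1 to 3 for M1 minus M0 came without WT M0 replicates 1 or 4, TRα1PV M0 replicate 4, WT M1 replicate 3 or TRα1PV M1 replicates 1 or 3. A replicate block gave 10 and 10 in M0, 14 and 3 in M1 and 3 and 8 in M2; it ended the M0 call of Kmt2b and moved no count by over 1.5 times. Depth limits Dnmt3c and Dnmt3l, which had 9 and 16 reads in WT M0 in all.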
